A study of Mus musculus with 10 samples.

Results

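A set of 9 transcripts that had been seen at a higher level in Neurog3-high endocrine progenitors than in Fev cells of the embryonic mouse pancreas was followed across the pancreatic epithelium. They were Tmem171, Lipg, Gm8773, Pou3f1, Prss8, Btbd17, Igfbpl1, Tgm7 and Ttll6, which are 9 of the 27716 genes that all matrices listed. For each one the data were asked whether it was new at the Neurog3 stage or kept from the duct. They were chosen by their measured level in Neurog3-high against Fev cells in these data, so their values there are given as a description with no test.

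In all, 8 libraries of droplet-based 3' single-cell RNA sequencing were used, each 1 pool of embryonic pancreata. Libraries made with the v1 kit held all live cells of Swiss Webster pancreata and comprised 1 each of E12.5 and E17.5 and a pair at E14.5 (batch 1 and batch 2). The v1 libraries of E12.5 and E17.5 are labelled batch 2 as well. Libraries made with the v2 kit held Swiss Webster cells of each of these days after removal of CD140a-positive mesenchyme, with the 2 wells of E17.5 summed, or cells of E14.5 Fev-Cre;ROSA26mTmG pancreata. In the last of these, Cre follows Fev regulatory sequences and switches the membrane reporter from tdTomato to eGFP; sorted GFP-positive cells were loaded together with tdTomato-positive, GFP-negative cells, so its class proportions were set by the sort. After a minimum of 200 genes per cell the libraries held 2309 to 13182 cells, and haemoglobin took 0.0128% to 60.9% of the deposited UMIs. The libraries are single pools from 1 litter (2 for v1 E12.5), so p-values measure the spread between pools that also differ in stage, kit and sorting. Pairs of libraries shared 0.433% to 1.82% of their cell barcodes. Cells were clustered without the 9 genes, and classes were named from marker genes; 13 of 110 named clusters (2128 of 24615 cells) were left unnamed. In 9 of them the leading genes marked another class or compartment, 3 held under 10% of the first marker of their class's highest cluster, and 1 beta cluster of v2 E17.5 held over 25% of the level of the duct marker Spp1 in the highest ductal cluster. The v2 E17.5 library has no beta class as a result. The Fev clusters of v1 E17.5 (69 cells) and v1 E14.5 batch 2 (72 cells) were kept, although more of their leading genes marked mesenchymal or erythroid cells than Fev cells. So was an acinar cluster of v2 E17.5 (56 of 2069 acinar cells) with 1 immune and 0 acinar markers among its leading genes. The leading genes of the v1 E17.5 Fev cluster also included Cma1, Tpsb2, Hdc and Tpsab1, which are in none of the marker lists. In v2 E12.5 the Fev cluster (100 cells) had 3 beta markers beside 3 Fev markers among its leading genes. The Fev class is on neither side of the tested comparisons.

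Endocrine cells of the pancreas arise from the duct-like trunk epithelium. A trunk cell that escapes Notch signaling switches on the basic helix-loop-helix factor Neurog3 for a short time, leaves the epithelium and passes through a Fev-expressing state before it makes a hormone. Factors of the helix-loop-helix family bind short palindromic DNA letters called E-boxes, CANNTG.

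The upstream windows of Tgm7 and Ttll6 are shown because the levels of these genes differed between libraries. Of the 4 members with an entry in the RefSeq promoter table (build GRCm38.p6), the 250 bases before the start of Gm8773 and of Btbd17 overlapped annotated exons and are not shown. Capitals mark every match to CANNTG, which reads the same on both strands. The Tgm7 window is chr2:121116397-121116646 on the minus strand, and the Ttll6 window is chr11:96133536-96133785 on the plus strand. GENCODE places the 5' end of Tgm7 at position 121109795, downstream of the RefSeq start.
Tgm7: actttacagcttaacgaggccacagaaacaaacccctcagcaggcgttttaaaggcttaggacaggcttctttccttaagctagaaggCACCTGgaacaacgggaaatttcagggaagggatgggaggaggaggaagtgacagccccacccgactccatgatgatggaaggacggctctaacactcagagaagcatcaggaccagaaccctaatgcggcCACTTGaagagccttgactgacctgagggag
Ttll6: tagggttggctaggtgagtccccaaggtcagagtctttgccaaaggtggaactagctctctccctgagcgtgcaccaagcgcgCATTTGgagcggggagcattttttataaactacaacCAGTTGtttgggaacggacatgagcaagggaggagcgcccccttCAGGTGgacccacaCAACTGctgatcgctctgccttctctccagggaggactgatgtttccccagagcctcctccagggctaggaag
The Tgm7 window held 2 matches and the Ttll6 window 4. The windows of Gm8773 and Btbd17 held 0. Of 32851 promoters in the table, 66.2% held at least 1 match in the same length, 31.8% held 2 or more and 3.84% held 4 or more, so a match by itself does not set these genes apart.

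In all, 8 of the 9 transcripts were higher in Neurog3-high than in ductal cells, against 12.2% of the 13379 genes tested. The median log2 fold of the 9 was 5.49, and that of all genes tested was -0.10. UMIs were summed per library and class and tested with edgeR's quasi-likelihood test that took the library as its block, and calls needed both a Benjamini-Hochberg adjusted p below 0.05 and at least 2-fold change. Filtered on the sums of these 2 classes alone, 8960 genes and 5 of the 9 members passed, with 9.45% of the genes and 4 members higher. Gm8773, Pou3f1, Tgm7 and Ttll6 passed only with all classes in the fit, so their folds are given with their UMIs. The Neurog3-high side of this comparison also took part in the choice of the genes. Neither the count nor the p-value of any of the 9 genes is thus independent of that choice. Levels are given as CPM, counts of the gene scaled to the total UMIs of the class in a library, and are compared within a gene only.

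Prss8, which encodes the membrane-anchored serine protease prostasin (chromosome 7, 127925716 to 127930104), was the transcript that the duct already carried. Its level in ductal cells ranged over the 8 libraries from 42.5 CPM through a median of 109 to 150 CPM, and in Neurog3-high cells from 25.4 through 51.3 to 82.6 CPM. Within every library the ductal level was the higher one, at 114% to 312% of the Neurog3-high level (median 176%). The log2 fold from ductal to Neurog3-high cells was -0.99 ± 0.31 (SE; edgeR quasi-likelihood test, Benjamini-Hochberg adjusted p = 0.00539), just short of the 2-fold limit. Its median was thus highest in ductal cells and not at the Neurog3 stage. Acinar cells held 33.9 to 115 CPM and overlapped both. In Fev cells the median was 0.668 CPM and 4 of 8 libraries had none.

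Tmem171, a gene for a transmembrane protein (chromosome 13, 98686235 to 98694834), was present in the duct and rose further. Ductal cells held 21.7 to 114 CPM with a median of 47.1, and Neurog3-high cells 91.9 to 483 CPM with a median of 126. The ductal level was 9.93% to 103% of the Neurog3-high level of the same library, with a median of 32.7%. That median was 52.8% over the v1 libraries alone and 19.0% where classes were set by per-cell marker gates. The 103% came from v1 E12.5, where the class held 65 ductal and 37 Neurog3-high cells, and the 9.93% from v1 E14.5 batch 1. The rise was 2.84-fold (log2 1.504 ± 0.325 SE, edgeR, Benjamini-Hochberg adjusted p = 7.45e-05). Tmem171 was chosen by its Neurog3-high level, so this p-value is not independent of the choice. Acinar cells, at a median of 48.8 CPM, were next to ductal cells in level. In Fev cells the median was 0.358 CPM, and at most 8.8 CPM was seen.

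Lipg encodes endothelial lipase, a secreted phospholipase, and lies on chromosome 18. It was low in the duct, from 0 CPM through a median of 2.86 to 7.33 CPM, and reached 9.56 to 52.0 CPM (median 26.3) in Neurog3-high cells. The 2 ranges did not overlap as measured, which is a description, since the share of all genes tested with such ranges was not counted. The ductal 0 CPM came from v1 E12.5, where it allows up to 10.6 CPM. Neurog3-high cells had only 4 UMIs in v1 E12.5 and 2 in v1 E17.5. The ductal level had a median of 11.3% of the Neurog3-high level, close to the working limit of 10% below which a transcript was sorted as new. It was under that limit with finer clusters (7.78%) and over the v1 libraries alone (8.83%). So it was with cells thinned to 2000 UMIs (v1) or 3000 UMIs (v2) and shallower cells left out (8.36%). Without the ductal clusters flagged as cycling it was 8.44%. That setting also left out v1 E17.5 (12.4%), whose only ductal cluster was flagged, and kept some unflagged clusters led by cell cycle genes. The rise was 8.31-fold (log2 3.06 ± 0.41 SE, edgeR, Benjamini-Hochberg adjusted p = 2.5e-09). Lipg was chosen by its Neurog3-high level, so this p-value is not independent of the choice. Endothelial cells held none in any of 7 libraries, which allows as much as 29.7 CPM in v1 E14.5 batch 1, with 31 such cells. Fev cells had a UMI in only 1 of 8 libraries.

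The other 6 transcripts had a median ductal level under 2% of the Neurog3-high level. Btbd17 encodes a BTB-domain protein (chromosome 11, 114791217 to 114795945). It went from 4.04 to 35.2 CPM in ductal cells (median 13.6) to 863 to 2426 CPM in Neurog3-high cells (median 1218), 95.6-fold in the fit. Igfbpl1 encodes a protein related to the insulin-like growth factor-binding proteins (chromosome 4, 45809468 to 45826923). It went from 1.48 to 52.8 CPM (median 8.26) to 476 to 1533 CPM (median 1015), 114-fold. In both genes every Neurog3-high value lay above every ductal value. The share of all genes tested with such a gap was not counted, so this is a description.

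Gm8773, a predicted protein-coding gene (chromosome 5, 5573799 to 5576203), ranged in ductal cells from 0 through a median of 1.47 to 59.8 CPM and in Neurog3-high cells from 0 through 102 to 203 CPM, 35.5-fold in the fit. That fold rests on 159 ductal and 830 Neurog3-high UMIs over all libraries. The ductal 59.8 CPM (17 UMIs) came from v1 E12.5, where Neurog3-high cells held 104 CPM (20 UMIs), so that the duct was at 57.5% there and at most 2.60% elsewhere. Its ductal level went with Neurog3 in v2 E12.5, but not to a like degree in every library. In v2 E12.5, with 111 ductal UMIs of Gm8773, 1 ductal cluster of 140 cells with 631 CPM of Neurog3 stood at 117 CPM, and the other 5 ductal clusters at 0 to 1.07 CPM. The ductal cluster of v1 E12.5, with 59.8 CPM of Gm8773, had 243 CPM of Neurog3. A ductal cluster of v1 E14.5 batch 2 with 222 CPM of Neurog3 held only 2.74 CPM of Gm8773. Another, of the Fev-Cre library, had 240 CPM of Neurog3 and 5.63 CPM of Gm8773. Over all libraries the median ductal percent of Gm8773 was 1.88% with all ductal cells and 0.0933% with those that had no Neurog3 UMI. The 1.88% itself moved to 0.324% without doublet removal and to 0.829% with finer clusters. Pou3f1, a POU-domain transcription factor (chromosome 4, 124656807 to 124660655), had a median of 0.165 CPM in ductal and 13.4 CPM in Neurog3-high cells, 44.9-fold on 16 ductal and 114 Neurog3-high UMIs. Both ranges began at 0 in Neurog3-high cells, from E17.5. Tgm7, a transglutaminase (chromosome 2, 121093565 to 121109795), had medians of 0.222 and 32.4 CPM. Ttll6, a tubulin polyglutamylase of the tubulin tyrosine ligase-like family (chromosome 11, 96133786 to 96165451), had medians of 1.24 and 416 CPM. Their fitted folds, 161 and 254, rest on 25 ductal UMIs of Tgm7 and 70 of Ttll6 over all libraries. The adjusted p (edgeR, Benjamini-Hochberg) was 4.53e-23 for Igfbpl1 and 5.15e-23 for Btbd17. Gm8773, Pou3f1, Tgm7 and Ttll6 passed the filter only with all classes in the fit, not on the ductal and Neurog3-high sums alone. Their p-values are thus not read. The Neurog3-high level took part in the choice of all 6 genes, so the p-values are not independent of it.

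**Figure D1:**
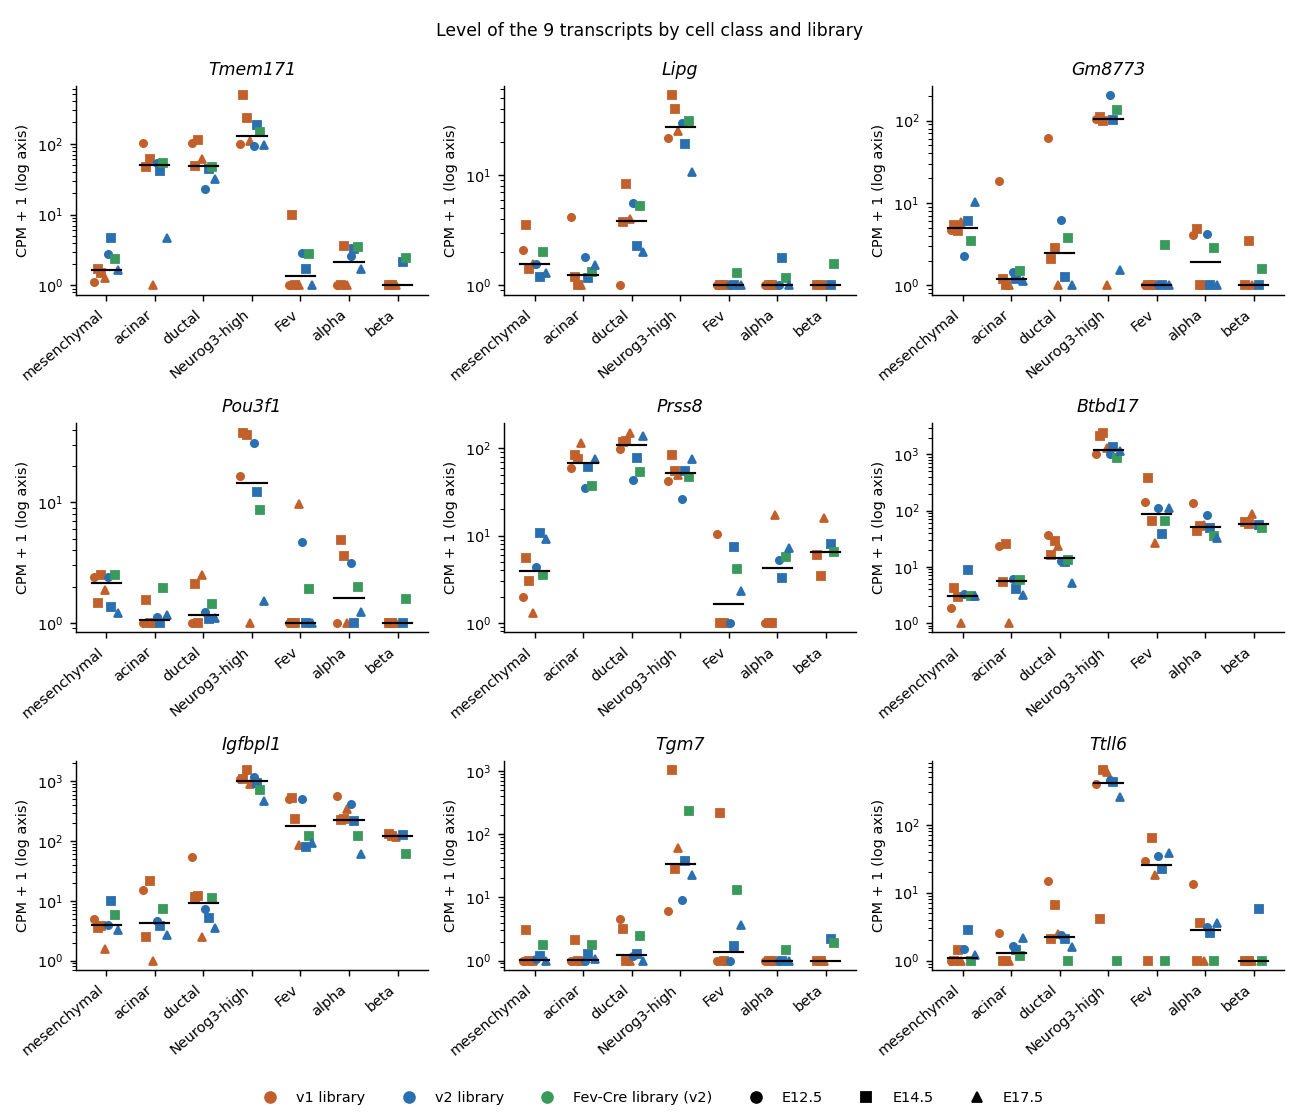
CPM plus 1 on a log axis for each of the 9 transcripts in 7 cell classes; each point is 1 library with at least 20 cells of the class (color, kit or line; shape, embryonic day) and the black bar is the median over libraries. Prss8 is highest in ductal cells (median 109 CPM), Tmem171 is shared by acinar, ductal and Neurog3-high cells, and the other 7 stand highest in Neurog3-high cells.

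**Figure D2:**
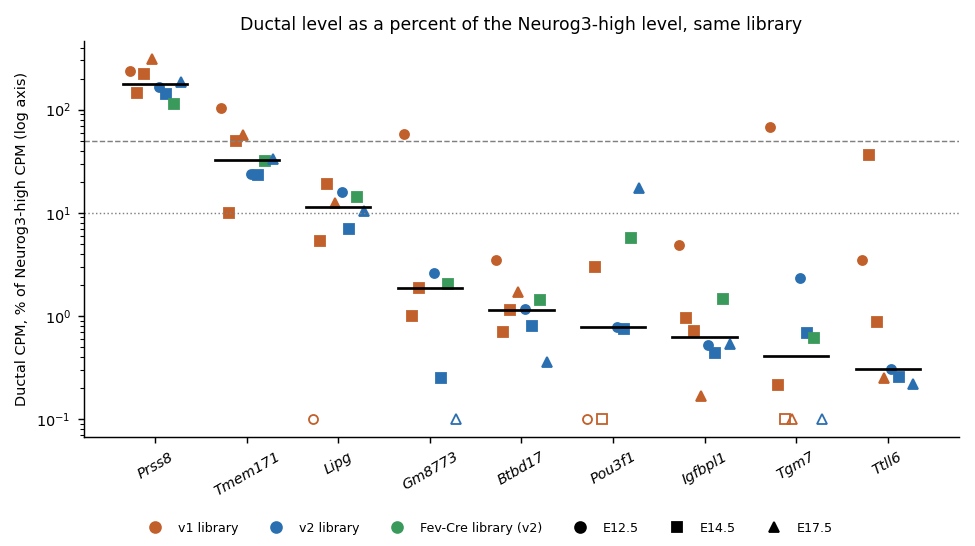
Ductal CPM as a percent of the Neurog3-high CPM of the same library, on a log axis, with the median as a black bar; dashed and dotted lines stand at 50% and 10%, open symbols at the bottom are values of 0, and libraries with no UMI in Neurog3-high cells are left out. Medians fall from 176% for Prss8 over 32.7% for Tmem171 and 11.3% for Lipg to under 2% for the other 6.

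In single cells thinned to 2000 UMIs (v1) or 3000 UMIs (v2), Neurog3-high cells held a mean of 2.22 to 3.25 of the 9 transcripts and ductal cells 0.27 to 0.51. From 39.1% to 77.3% of Neurog3-high cells had 3 or more, against 0.0847% to 3.7% of ductal cells. Btbd17 was seen in 68.6% to 92.9% of Neurog3-high cells. Its share was 1.02% to 5.21% in ductal and 0% to 1.72% in mesenchymal cells, which were taken as a background of free RNA for this gene. These counts used the same Neurog3-high cells that chose the genes.

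The duct was then set against classes that took no part in the choice. Against mesenchymal cells, 5 of the 9 transcripts were higher in ductal cells, beside 10.7% of all genes tested. Filtered on the sums of these 2 classes alone, 11865 genes passed, of which 10.1% were higher in ductal cells, and so did 6 of the 9 members, of which 4 were higher. In the v2 Swiss Webster libraries the mesenchymal cells are those that escaped the CD140a sort. Tmem171 was 46.7-fold and Prss8 23.3-fold higher, with log2 folds of 5.54 ± 0.39 and 4.54 ± 0.31 (SE). Btbd17 was 5.07-fold higher (log2 2.34 ± 0.41 SE) and Lipg 3.61-fold (log2 1.85 ± 0.41 SE). The call of Ttll6 is not read as a difference, since the gene passed the filter through other classes and had 70 UMIs in ductal and 32 in mesenchymal cells over all libraries. It was lost under 10 of the alternatives, among them the fit without the library block (adjusted p = 0.166) and those without v1 E12.5, v1 E14.5 batch 2 or v2 E12.5.

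Igfbpl1 missed the call at log2 0.99 ± 0.41 (edgeR, Benjamini-Hochberg adjusted p = 0.0402), at the edge of the 2-fold limit, and gained it under 8 alternatives, among them DESeq2 (log2 1.23, adjusted p = 0.0231) and the fits without v2 E14.5 (log2 1.45) or without v2 E17.5 (1.13). In the same comparison Tgm7 and Gm8773 were not called. Pou3f1 too passed the filter through other classes. It had 16 UMIs in ductal cells (at most 1.48 CPM in a library) and 124 in mesenchymal cells (at most 1.51 CPM), and the call of a lower ductal level is likewise not read as a difference. It was lost under 8 alternatives, among them DESeq2 (adjusted p = 0.183) and the fits without v1 E12.5, v2 E12.5, v2 E14.5 or the Fev-Cre library. With only those ductal cells that had no Neurog3 UMI, Btbd17 was still higher than in mesenchymal cells, at log2 1.14, and Igfbpl1 stood at log2 0.24. For Gm8773 this restriction moved the log2 fold from -1.36 to -3.69. Mesenchymal cells held Gm8773 themselves, at 1.29 to 9.24 CPM (391 UMIs over all libraries). In v2 E17.5, thinned to 3000 UMIs per cell, 2.93% of mesenchymal, 0% of ductal and 0.192% of immune cells had a UMI of it. Mesenchymal cells are thus not read as a background for this gene.

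Against hormone cells, the mean of alpha and beta, 3 of the 9 were higher in ductal cells, beside 18.4% of all genes tested. They were Tmem171 (log2 5.41 ± 0.46 SE), Prss8 (4.15 ± 0.33) and Lipg (3.57 ± 0.62). Filtered on the sums of these classes alone, 4 of the 9 members passed, of which 2 were higher, and 17.1% of the 9035 genes were. Lipg did not pass, with 193 UMIs in ductal and 4 in hormone cells. The same sums of ductal cells entered all of these comparisons. Btbd17 and Igfbpl1 were lower in the duct than in hormone cells, by 4.52-fold and 21.0-fold, beside 16.7% of all genes tested that were lower. The other 4 were not called.

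Btbd17 and Igfbpl1 were present in Fev and hormone cells too. Igfbpl1 stood at 59.4 to 569 CPM in alpha cells, 60.8 to 132 CPM in beta cells and 396 and 835 CPM in the 2 epsilon classes of at least 20 cells. Btbd17 stood at 30.9 to 133 CPM in alpha, 47.3 to 84.8 CPM in beta and 322 and 504 CPM in epsilon cells. Both were present in Fev cells of all 8 libraries, Btbd17 at 25.8 to 374 CPM and Igfbpl1 at 78.1 to 523 CPM. The 374 and 523 CPM came from v1 E14.5 batch 1, where Fev cells also held 1350 CPM of Neurog3. Fev cells of v2 E17.5 held 2491 CPM of Neurog3, with 108 CPM of Btbd17 and 92.2 CPM of Igfbpl1. The epsilon classes held 839 CPM of Neurog3 in v2 E14.5 and 1508 CPM in v2 E17.5. The part of Neurog3-expressing cells in these levels was not tested. In the Fev clusters of v1 E17.5 and v1 E14.5 batch 2, with their mesenchymal or erythroid leading genes, Btbd17 stood at 25.8 and 65.3 CPM and Igfbpl1 at 86.0 and 230 CPM. Without these, Btbd17 ranged from 36.5 to 374 CPM, and the range of Igfbpl1 was as given. The level of Btbd17 and Igfbpl1 in Fev cells was a median of 8.51% and 18.2% of the Neurog3-high level. Neurog3-high cells also held Fev, so these percents do not compare cleanly parted stages. In v1 E17.5 Fev stood at 685 CPM in Neurog3-high and 1023 CPM in Fev cells. In v2 E14.5 the Neurog3-high clusters held 9.08, 228 and 445 CPM of Fev, and the Fev clusters 250 and 943 CPM. Igfbpl1 was also seen in neural cells, at a median of 31.1 CPM. The medians of Tmem171, Lipg, Gm8773 and Pou3f1 in Fev cells were 0.196%, 0%, 0% and 0% of the Neurog3-high level. That of Prss8 was 0.898%. Ttll6 reached a median of 7.09% and at most 14.7% over 7 libraries, and Tgm7 a median of 0.954% and at most 20.8%. Epsilon cells held 151 CPM of Ttll6 in v2 E14.5 and 43.7 CPM in v2 E17.5.

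A frame of 17 companion genes, among them Notch pathway genes and endocrine transcription factors, was chosen with earlier results of these data known. Of these, 16 were higher and 1 lower in Neurog3-high than in ductal cells, with a median log2 fold of 2.84, beside 12.2% higher and 15.9% lower of all genes tested. The lower one was Hes1, the Notch-induced repressor of Neurog3, at log2 -3.21 ± 0.36 (SE), and the smallest rise was that of the Sox family factor Sox4, at 1.23 ± 0.30. The largest rises were those of Neurod2, a helix-loop-helix factor, at log2 8.90 ± 0.47 (SE), and of Cck, which encodes the peptide cholecystokinin, at 7.77 ± 0.55. Against mesenchymal cells 6 of the 17 were higher and 2 lower in the duct, beside 10.7% and 17.9% of all genes. Against hormone cells 5 were higher and 7 lower, beside 18.4% and 16.7% of all genes.

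Gm8773 was lower in Neurog3-high cells of E17.5 than in those of E12.5 and E14.5. In the 6 earlier libraries, Gm8773 ranged from 97.5 through a median of 107 to 203 CPM. At E17.5 it was at 0 UMIs in v1, which allows up to 36.0 CPM, and at 1 UMI in v2 (0.531 CPM). Pou3f1 ranged from 7.71 through 22.9 to 36.7 CPM in the earlier libraries, and was likewise at 0 and 1 UMI at E17.5. For Pou3f1 the v1 E17.5 library, with 31 Neurog3-high cells, was too shallow to show a level like that of the earlier ones. For this gene the comparison thus rests on v2 E17.5. Values in both E17.5 libraries below all earlier ones were also seen in 5.52% of the genes tested. The stage values are a description, since these genes were singled out after their values were seen. The E17.5 Neurog3-high cells held the other transcripts, with Btbd17 at 1298 CPM (v1) and 1137 CPM (v2), inside the range of the earlier libraries. Igfbpl1 stood at 889 and 476 CPM, the v2 value below the earlier range of 710 to 1533 CPM. Lipg stood at 24.0 and 9.56 CPM, the v2 value likewise below the earlier 18.3 to 52.0 CPM.

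Tgm7 and Ttll6 differed between libraries that were of the same stage or kit. In Neurog3-high cells Ttll6 stood at 254 to 632 CPM in 6 libraries, at 3.06 CPM (1 UMI in 110 cells) in v1 E14.5 batch 1, and at 0 UMIs in 160 cells of the Fev-Cre library, which allows up to 2.57 CPM. Tgm7 stood at 1037 CPM in v1 E14.5 batch 1 and 236 CPM in the Fev-Cre library, and at 5.20 to 60.1 CPM in the other 6. The exact Poisson 95% intervals, which cover counting error only, were 929 to 1153 CPM and 209 to 266 CPM for the high pair of Tgm7. The highest upper bound among the other 6 libraries was 140 CPM, in v1 E17.5. The same held over all cells, where v1 E14.5 batch 1 had 439 UMIs of Tgm7 and 3 of Ttll6, v1 E14.5 batch 2 had 12 and 266, the Fev-Cre library 458 and 8, and v2 E14.5 172 and 1773. Batch 1 is labelled Swiss Webster like batch 2, while the Fev-Cre library is from mice kept on a C57BL/6J background. The batch 1 library is the only v1 library of its batch, so that within v1 the difference went with the batch. The Fev-Cre matrix also lists 28694 genes, beside 27998 in the other v2 and 27775 in the v1 matrices. The part of batch, strain, genotype, litter, gene list or reference sequence in these differences was not tested.

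Neighboring genes were looked up after these values were seen, and those of Tgm7 did not stand apart in the same libraries. In Neurog3-high cells of v1 E14.5 batch 1 and of the Fev-Cre library, Lcmt2, next to Tgm7, stood at 52.0 and 26.5 CPM, within the 15.6 to 54.6 CPM of the other libraries. Tgm5, the next gene on the other side, stood at 12.2 and 11.99 CPM, within 7.04 to 24.0 CPM. Calcoco2, which overlaps Ttll6 by 104 bases in the RefSeq annotation, had 0 UMIs in both and also in v1 E12.5 and v1 E17.5. In the Fev-Cre library this allows up to 2.57 CPM, below the 4.25 to 9.39 CPM of the other v2 libraries. Atp5g1, the gene beyond Calcoco2, stood at 443 CPM in v1 E14.5 batch 1 and at 327 CPM in the Fev-Cre library, the lowest of the 8, beside 343 to 775 CPM in the others. Atp5g1 thus showed no drop of the size seen in Ttll6. Calcoco2 was lower in the Fev-Cre library than in the other v2 libraries. Its 0 to 20 UMIs in a library were too few to show a drop of that size. The log2 rise of Tgm7 from ductal to Neurog3-high cells was 6.97 without v1 E14.5 batch 1 and 7.44 without the Fev-Cre library. That of Ttll6 was 8.13 and 8.07. Both genes passed the filter only with all classes in the fit and were chosen by their Neurog3-high level, so these folds are a description.

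**Figure D3:**
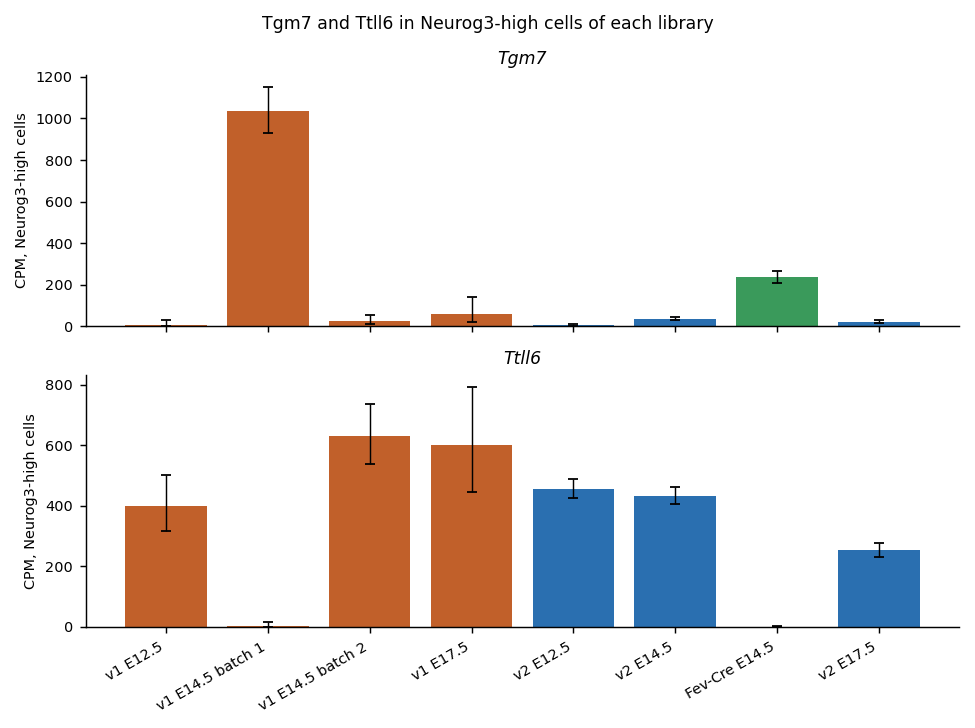
CPM of Tgm7 (top) and Ttll6 (bottom) in Neurog3-high cells of each library, with exact Poisson 95% intervals of the UMI count as error bars. Tgm7 is highest in v1 E14.5 batch 1 (1037 CPM) and the Fev-Cre library (236 CPM), the libraries in which Ttll6 had 1 and 0 UMIs.

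In 4 libraries there was more than 1 Neurog3-high cluster, and these differed in Spp1, the osteopontin gene that marks the duct, by 9.86- to 44.7-fold between the lowest and the highest cluster. Clusters of 1 library are not replicates, so the values are a description. Tmem171 was 2.23 to 7.49 times as high in the Spp1-high as in the Spp1-low cluster, and Prss8 2.19 to 3.72 times, in 4 of 4 libraries. Gm8773 was higher there in 3 of the 3 libraries with over 3 UMIs of it, at 1.95 to 4.47 times, and Lipg in 3 of 4. Igfbpl1 went the other way in 4 of 4 libraries, at 1.98 to 4.49 times as high in the Spp1-low cluster. So did Tgm7, at 2.5 to 24.4 times, and Ttll6 in 3 of 3, at 1.27 to 1.51 times. Btbd17 was split 2 and 2. Pou3f1 was higher in the Spp1-high cluster in 2 of 3. Neurog3 itself was higher in the Spp1-high cluster in 2 of 4 libraries, and Fev in 1 of 4, v1 E14.5 batch 1, on 15 UMIs. In v2 E12.5, v2 E14.5 and v2 E17.5, Fev was 66.1, 49.0 and 29.7 times as high in the Spp1-low cluster. These clusters thus differed in Fev as well as in Spp1, and the genes were chosen as higher in Neurog3-high than in Fev cells.

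**Figure D4:**
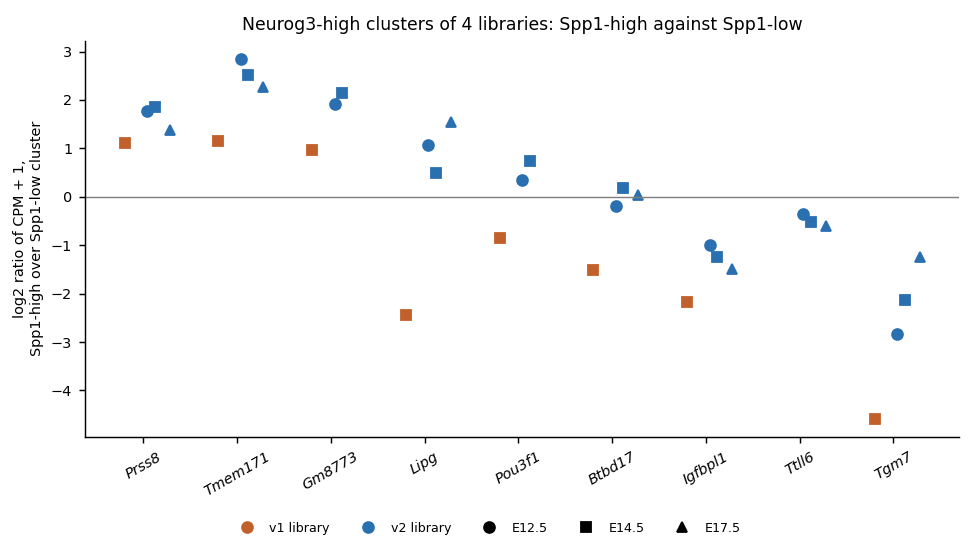
Log2 ratio of CPM plus 1 between the Neurog3-high clusters with most and least Spp1, 1 point per library with 2 or more such clusters and over 3 UMIs of the gene; the line at 0 marks equal levels. Prss8 and Tmem171 lie above 0 in all 4 libraries, and Igfbpl1 and Tgm7 lie below 0 in all 4.

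Ductal and Neurog3-high cells were also pooled and ordered by their own Neurog3 UMIs. The pool includes the Neurog3-high cells that took part in the choice of the genes. A rise along the steps is thus in part built in, and a graded rise cannot be told from a mix of the 2 classes. In v2 E14.5, Tmem171 stood at 30.7 CPM in cells with 0 Neurog3 UMIs, 89.9 with 1, 160 with 2 to 4 and 218 with 5 or more. Btbd17 went through 12.53, 103, 334 and 1436 CPM over the same cells, and Igfbpl1 through 13.5, 88.6, 293 and 918 CPM. Gm8773 stood at 0.186, 0, 35.7 and 107 CPM. Lipg stood at 1.30, 1.27, 5.64 and 19.6 CPM. Prss8 hardly moved, at 75.4, 83.6, 65.7 and 64.7 CPM. In v2 E12.5 and v2 E17.5 Btbd17 was higher at each of the 4 steps as well, from 10.3 to 825 CPM and from 2.29 to 904 CPM. The Fev-Cre library differed, since Btbd17 stood at 6.64, 8.50 and 15.3 CPM over the first 3 steps and 652 CPM at the last. The median depth of the cells fell along the steps, from 5754 to 4390 UMIs in v2 E14.5, and its part in these levels was not tested.

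**Figure D5:**
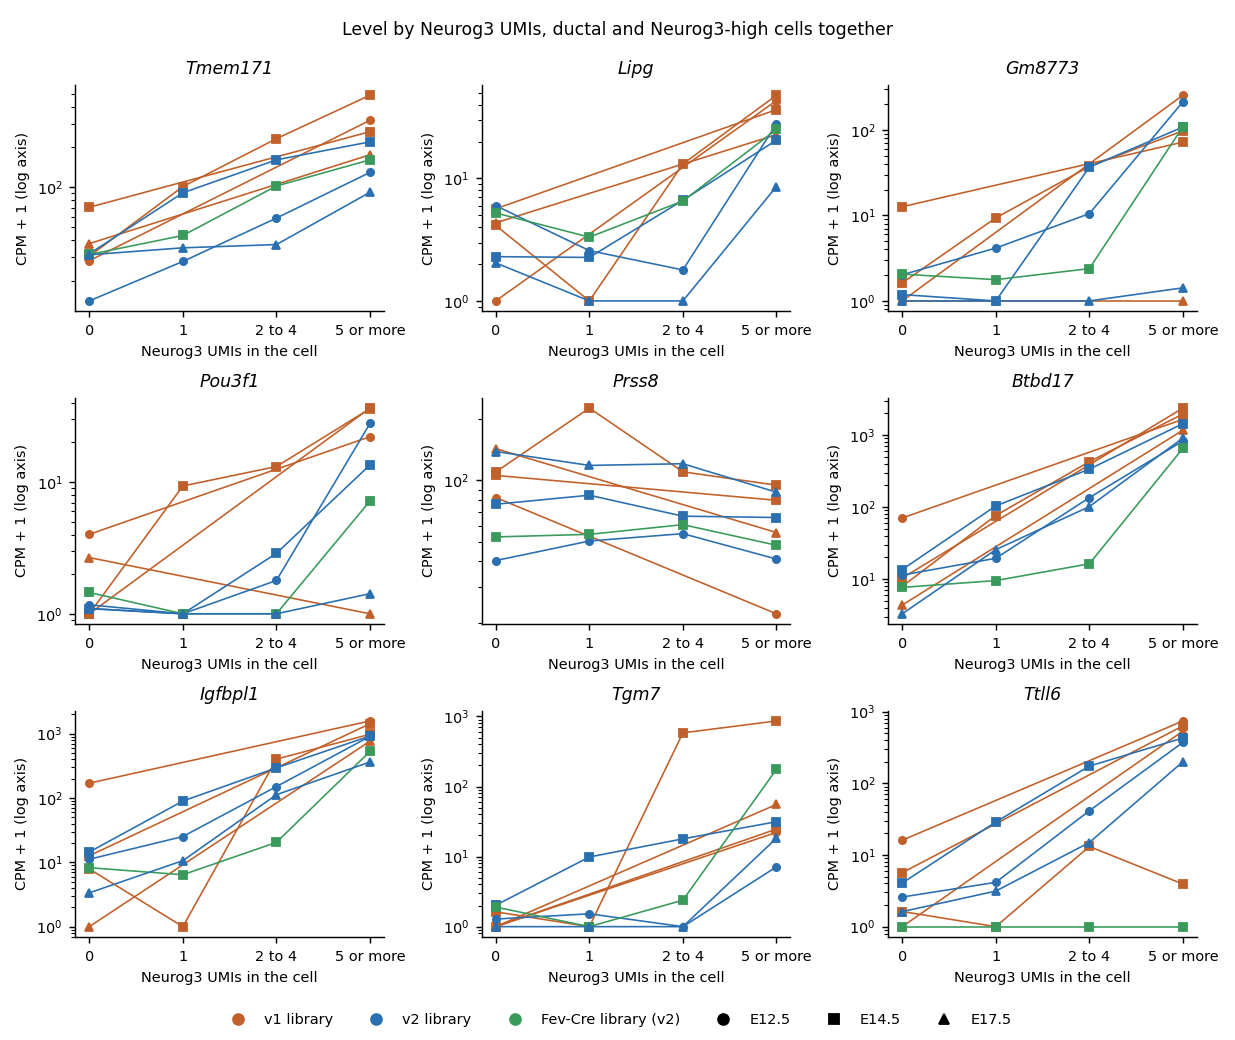
CPM plus 1 (log axis) in ductal and Neurog3-high cells pooled by their number of Neurog3 UMIs, 1 line per library (color, kit or line; shape, embryonic day), for bins of at least 20 cells. Tmem171, Btbd17 and Igfbpl1 climb already at 1 to 4 Neurog3 UMIs in v2 E14.5, while Prss8 stays near its starting level.

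In the Fev-Cre library, 16.9% of Neurog3-high cells and 94.5% of Fev cells had a UMI of eGFP. The 51 Fev cells without one held 372 CPM of Btbd17, 633 CPM of Igfbpl1 and 121 CPM of Tgm7, against 49.99, 95.7 and 6.92 CPM in the 884 with one. In Neurog3-high cells Btbd17 stood at 892 CPM in 133 cells without and 744 CPM in 27 cells with eGFP, and Igfbpl1 at 724 and 652 CPM. Tgm7 stood at 258 and 145 CPM, and Tmem171 at 154 and 101 CPM. Gm8773 and Lipg stayed under 4 CPM in both kinds of Fev cell. Of the ductal cells 28.5% had a UMI of eGFP, and free reporter RNA was not separated from reporter activity. These are cells of 1 library and carry no test.

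Genes most like each member were sought by Pearson's r of log2(CPM + 1) over 37 library and class sums of ductal, Neurog3-high, Fev, alpha and beta cells, among 8358 genes. The sums share libraries and classes, so r is a description. Tmem171 was closest to Rasgrp3 (r = 0.95) and Tead2 (0.94), and Igfbpl1 to Cck (0.94) and Mtfp1 (0.94). Btbd17 was closest to Stard10 (0.92) and Cd40 (0.91). Prss8 followed Mgst1 and Sphk1 (both 0.87). Lipg followed Bhlhe23 and its fellow member Tmem171 (both 0.87). Gm8773 followed Kirrel2 (0.78) and Ifitm1 (0.74), and Pou3f1 followed Nkd1 (0.79) and Ifitm1 (0.78). Tgm7 was closest to Epb42 (0.86), which lies beyond Tgm5 on the same chromosome, and to Foxa3 (0.85). The likeness was weakest for Ttll6, to Ccs and Srsf11 (both 0.71).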

How the data were processed

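Single cells of 8 pools of mouse pancreas between E12.5 and E17.5 were analysed. The deposited values are UMI counts per gene and cell, which the authors made with Cell Ranger 1.1 (v1) or 2.1 (v2) on mm10, with eGFP and tdTomato sequences added for the Fev-Cre library. The gene lists differed by more than these sequences, with 27775 genes in v1, 27998 in v2 Swiss Webster and 28694 in Fev-Cre matrices. Cells with at least 200 genes were clustered per library (Leiden, resolution 1, leidenalg 0.10.2) on 2000 variable genes without the members or companions. Cells were removed as doublets where marker genes of 2 exclusive compartments each reached 30% of the median share in their own cells (1.91% to 11.8% of cells per library), and named clusters were dropped by their leading genes, a low first marker or ductal Spp1, by limits set after the clusters were seen. Counts were summed per library and class of at least 20 cells and tested in 1 fit over all classes with edgeR 4.0.16 (quasi-likelihood test, TMM scaling, filterByExpr, library as a block, Benjamini-Hochberg). Same-library sums come from 1 pool, which is the pairing. A run of the fit on simulated data is not reported here and is not used as support. DESeq2 1.42.0 and the other alternatives are given in the closing section. The text names all 9 members, the companions with the 2 largest and 2 smallest log2 folds, and the 2 genes most like each member. Members and lists were chosen with earlier results of these data known. Where a limit is given for a value at 0, it is 3 UMIs, which covers counting error only. Positions follow GENCODE on GRCm38.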

Additional observations from a re-analysis of the deposited data

Results flagged for a closer look

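In 18 groups of 8 libraries (each member in ductal and in Neurog3-high cells), 5 had a library that stood farther from the rest than Dixon's 95% critical value allows. Chance flags about 1 group in 20, and these libraries also differ in stage and kit. In v1 E14.5 batch 1, Neurog3-high cells held 483 CPM of Tmem171, with 230 CPM in the nearest library, and 1037 CPM of Tgm7, with 236 CPM in the nearest library. In v1 E12.5, ductal cells held 59.8 CPM of Gm8773 (17 UMIs, nearest library 5.27 CPM), 52.8 CPM of Igfbpl1 (15 UMIs, nearest 11.0 CPM) and 14.1 CPM of Ttll6 (4 UMIs, nearest 5.50 CPM). This ductal class is 1 cluster of 65 cells with 243 CPM of Neurog3. Ductal cells without a Neurog3 UMI were examined over all libraries only, so the part of Neurog3-expressing cells in this library was not tested.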

How the results depend on the processing

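Over the planned and added alternatives, 93 of 95 values of the 4 counts of members held within 1.5 times the main count. One exception was the count of members at 50% or more of the Neurog3-high level in the duct, which was 2 in place of 1 over the v1 libraries alone, where Tmem171 reached a median of 52.8%. The count higher in Neurog3-high than in ductal cells was 8 under every alternative except the per-cell marker gates, where it was 7 and Pou3f1 was not among the genes tested, and the low-count filter within the classes compared, where it was 4 since fewer members were tested. With each library left out in turn, the count higher in ductal than in mesenchymal cells ranged from 4 to 6, and the other counts kept their values. Without the replicate block the counts were 8, 4 and 3, against 8, 5 and 3 with it, the lost call being Ttll6; the block changed no other call of a count. Of 654 single values, 593 kept direction and side of the threshold, 19 lost the call, 29 gained it and 13 reversed. Against hormone cells, the log2 fold of Ttll6 became 0.32 with DESeq2, 0.55 with thinned cells, 3.14 in v1 and -1.19 to 1.25 with 1 library left out (1.25 without v2 E14.5), that of Gm8773 became -0.53 with marker gates and -0.89 without Neurog3 UMIs, that of Tgm7 -0.13 with marker gates and -0.34 with every cluster under its first name, and that of Pou3f1 1.16 in v1 and -0.89 to 0.68 with 1 library left out (0.68 without the Fev-Cre library). Against mesenchymal cells, Gm8773 became 0.40 in v1, and against immune cells Gm8773 became 1.23 and Pou3f1 0.82; the cause was not tested. Prss8, at the edge of the 2-fold limit, was called lower in Neurog3-high cells under 9 alternatives. The level of a class in CPM uses library totals, so the alternative without TMM scaling was not run for the percent of the Neurog3-high level. Keeping every cluster under its first name, leaving out erythroid cells, a minimum of UMIs and the filter within classes were added after the data were seen. Depth limits the ductal levels of Tgm7 (25 UMIs) and Pou3f1 (16 UMIs) most.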
